A study of Rattus norvegicus with 18 samples.

Results

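Kidneys of rats exposed to cadmium chloride for 12 weeks were compared, gene by gene, with kidneys of rats exposed for 6 weeks. The comparison uses 6 of the 18 arrays of the study, the 3 labelled CdCl2 at 12 weeks and the 3 labelled CdCl2 at 6 weeks, which were taken by those labels. Another 6 arrays, 3 of normal saline at 12 weeks and 3 of normal saline at 6 weeks, show the same span of time without the metal. The last 6, 3 with cadmium and 3 with saline at 1 day, enter through the estimate of the spread. All are of whole rat kidney, labelled as biological replicates, whose RNA was hybridized as biotin-labelled cRNA to Affymetrix arrays. Dose, route, strain, sex, age and hour of death are not given in the sources used here. Nothing says whether an array holds 1 animal or a pool, and 6 more weeks of cadmium cannot be told apart from 6 more weeks of age or from another day of harvest, except as far as the saline groups show the same span.

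Cadmium taken up by the body is bound by metallothionein, a small cysteine-rich protein, and is filtered and reabsorbed into the proximal tubule, where it stays for a long time. Free cadmium ions draw on glutathione and other thiols. Such thiol stress frees the transcription factor NRF2 from its inhibitor KEAP1, and NRF2 then drives genes for glutathione and thioredoxin recycling, for the reduction of reactive aldehydes, for conjugation and for the export of conjugates. Heme oxygenase, which opens the heme ring, is held down by the repressor BACH1 until heme or thiol stress removes it.

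Values are deposited log2 signals, and changes are given as differences of mean log2 signal, 12 weeks minus 6 weeks. They are not calibrated folds, because the scale ends at 19.93 and how it was made is not stated. Genes for odorant and vomeronasal receptors, 1276 in number, were used as a ruler for silence, and the 95th percentile of their mean signals, 4.22, is called the background level. A gene was called changed at a Benjamini-Hochberg adjusted p under 0.05 in limma over 22084 genes. Arrays of the same cadmium group correlated at 0.984 to 0.994 across genes and arrays of different cadmium groups at 0.983 to 0.992. With 3 arrays a group, precision is set by how few they are. Of the defining kidney markers, Lrp2 and Slc34a1 of the proximal tubule, Umod and Slc12a1 of the thick ascending limb, Slc12a3 of the distal tubule and Aqp2 of the collecting duct were each above 14 on all 6 cadmium arrays.

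Between 6 and 12 weeks of cadmium a small set of genes rose, and the largest rises were in genes for heme breakdown, glucuronide formation, conjugate export and the reduction of reactive alkenals. Hmox1, Ugt2b7, Abcc2 and Ptgr1 rose by 4.22 to 5.93 log2 units, and Slc7a11 and Txnrd1, which serve thiol balance, and Bach1, which encodes the repressor of Hmox1, also rose. Only 3 genes fell, among them C3ar1, the receptor for a complement fragment. In numbers, 41 of 22084 genes rose (0.186%) and 3 fell (0.0136%), 44 in all (0.199%). An unadjusted p under 0.05 was found for 1064 higher (4.82%) and 1077 lower genes (4.88%), 2141 in all (9.69%). Over the same span in saline kidneys limma passed 0 genes, while 1854 (8.4%) reached an unadjusted p under 0.05. In all of the 44 genes called with cadmium, the values of the 12 week arrays did not overlap those of the 6 week arrays, which was so for 1848 higher (8.37%) and 1866 lower genes (8.45%) of all tested. Fitted on the 6 cadmium arrays alone, limma called 0 genes, with 2271 at an unadjusted p under 0.05 and a smallest adjusted p of 0.127. The calls therefore rest on the spread shared with the other 12 arrays. Over the 16 alternatives run for each gene, 14 of the 44 calls were lost with that fit alone, those of Hmox1, Ugt2b7, Abcc2, Ptgr1, Pir, Apoc2, Ccl9 and Cimap2 among them, and 30 were lost with at least 1 other alternative too. Without replicate 1 of cadmium at 6 weeks 15 genes rose and 0 fell, and without replicate 3 of cadmium at 6 weeks 22 rose and 9 fell.

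Hmox1, heme oxygenase 1, had log2 signals of 13.35, 15.74 and 12.60 on the cadmium arrays of 12 weeks, against 8.21, 7.16 and 8.52 on those of 6 weeks. Saline arrays lay at 4.66 to 4.998 at 12 weeks and 4.84 to 5.30 at 6 weeks. All 3 arrays of 12 weeks stood far above every other array, and the 6 week cadmium arrays stood between them and saline. The difference between the cadmium times was 5.93 (SE 0.55, limma adjusted p = 3.23e-04). Along the 3 cadmium times the mean was 5.25 at 1 day, 7.96 at 6 weeks and 13.89 at 12 weeks. The SD was 1.64 at 12 weeks with cadmium and 0.18 at 12 weeks with saline, so the pooled SE is smaller than the spread of the 12 week cadmium arrays alone would give.

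Ptgr1 encodes prostaglandin reductase 1, which reduces eicosanoids and reactive alkenals. Its signals were 10.84, 12.64 and 10.83 with cadmium at 12 weeks, against 7.24, 7.12 and 7.29 with cadmium at 6 weeks. The 6 week values lay inside those of saline at 6 weeks, which were 7.01 to 7.50, while at 12 weeks the cadmium arrays were more than 3 log2 units above the saline range of 6.60 to 7.21. The difference was 4.22 (SE 0.39, adjusted p = 3.23e-04). As for Hmox1, the pooled SE is smaller than these arrays alone would give, with an SD of 1.04 at 12 weeks and 0.086 at 6 weeks. Unlike Hmox1, then, this gene was at the saline level at 6 weeks.

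Ugt2b7, a glucuronosyltransferase of the endoplasmic reticulum, had signals of 14.10, 13.48 and 10.40 at 12 weeks, against 7.57, 6.95 and 7.71 at 6 weeks. Replicate 3 of the 12 week group was the lowest there and still above all 6 week arrays. The difference was 5.25 (SE 0.65, adjusted p = 0.00349). The SD with cadmium was 1.98 at 12 weeks and 0.41 at 6 weeks, so the pooled SE is again smaller than these arrays alone would give. Members of the Ugt2b family resemble each other in sequence, and probes could take up RNA of a relative. Abcc2, the pump that moves glucuronide and glutathione conjugates across the apical membrane, had signals of 15.29, 15.26 and 13.41 at 12 weeks, against 9.21, 9.49 and 10.86 at 6 weeks. Here too the groups did not overlap, and replicate 3 was the lowest array at 12 weeks and the highest at 6 weeks. The difference was 4.80 (SE 0.61, adjusted p = 0.00389), and in saline it was 0.95 (adjusted p = 0.686).

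**Figure D1:**
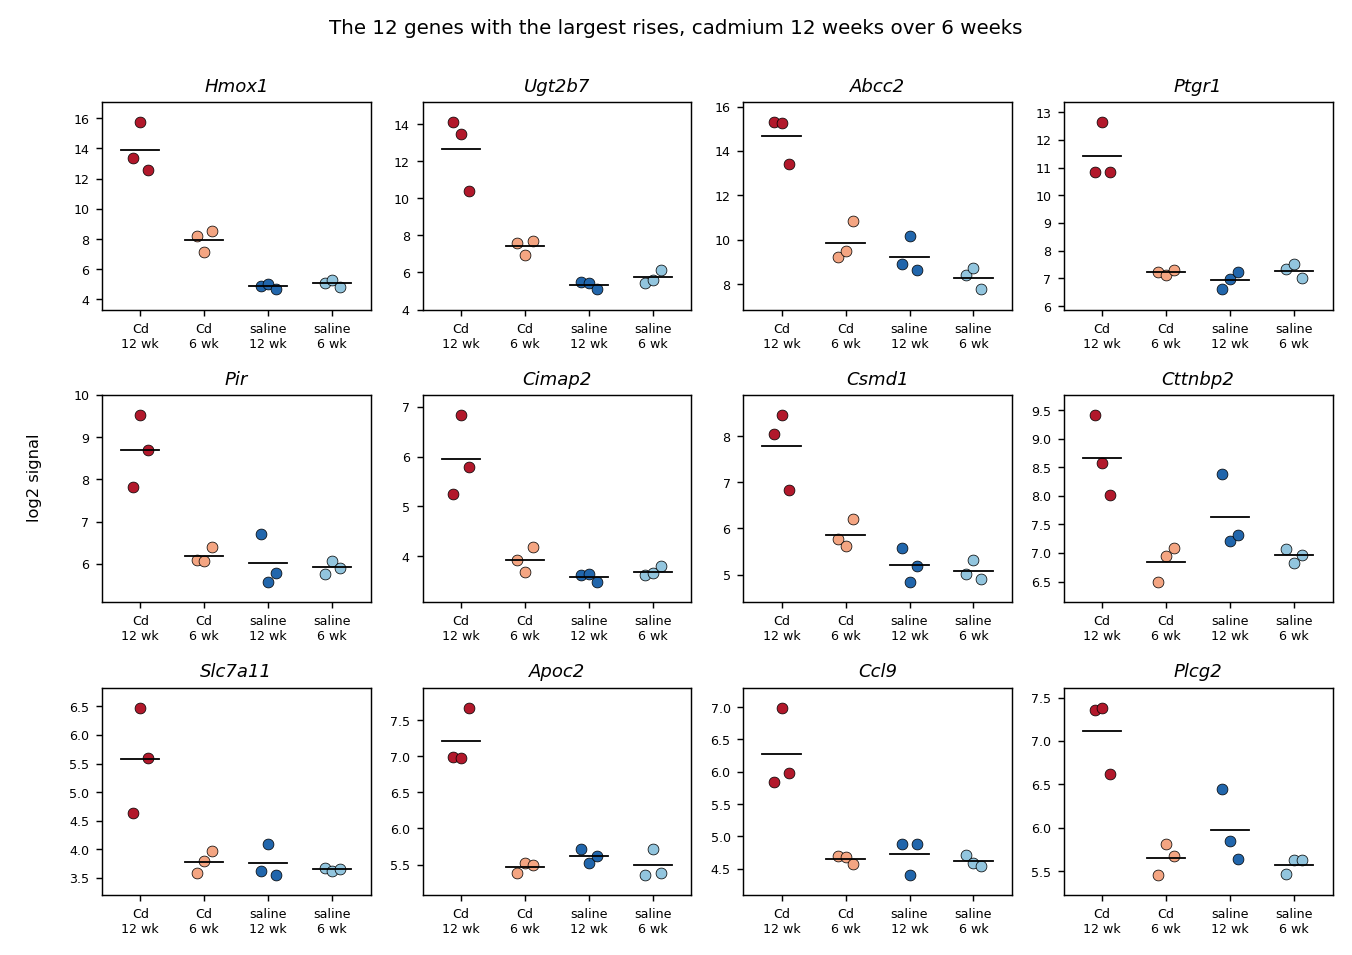
Log2 signal (vertical axes, a scale of their own in each panel) of the 12 genes with the largest rises on each array of cadmium at 12 weeks, cadmium at 6 weeks, saline at 12 weeks and saline at 6 weeks. Points are arrays and bars are group means; in all 12 panels the 3 points of cadmium at 12 weeks lie above those of cadmium at 6 weeks, with Hmox1 between 12.60 and 15.74 at 12 weeks.

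The other 8 of the 12 largest rises were smaller. Pir, pirin, an iron-binding nuclear protein, had signals of 7.82, 9.53 and 8.71 at 12 weeks, against 6.08, 6.06 and 6.41 at 6 weeks. Its difference was 2.50 (SE 0.35, adjusted p = 0.00635), and the 12 week arrays spread over more than the distance of the lowest of them from the 6 week arrays. Cimap2, a protein of ciliary microtubules, was below background at 6 weeks and is given as a bound, at least 1.73 log2 units higher at 12 weeks (adjusted p = 0.00492). Slc7a11, the exchanger that brings in cystine for glutathione synthesis, had signals of 4.64, 6.48 and 5.60 at 12 weeks, against 3.58, 3.79 and 3.98 at 6 weeks, which is at least 1.35 above background (adjusted p = 0.0256). Apoc2, the activator of lipoprotein lipase, rose by 1.75 (SE 0.19, adjusted p = 0.00122) and was the tightest of the set, at 6.99, 6.97 and 7.67 at 12 weeks, against 5.38, 5.52 and 5.50 at 6 weeks. Csmd1, a membrane protein with complement control domains, rose by 1.92, and Cttnbp2, a partner of the actin regulator cortactin, by 1.83 (adjusted p = 0.0248 and 0.0486). At 12 weeks Cttnbp2 had 9.41, 8.58 and 8.01 with cadmium, overlapping 8.38, 7.21 and 7.31 with saline. Its saline difference was 0.68. The chemokine Ccl9 rose by 1.63, and the phospholipase Plcg2 by 1.47 (adjusted p = 0.00596 and 0.0137).

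Of the lists of genes drawn up by function, the antioxidant and NRF2 list held 36 measured genes, of which 27 were on the higher side at 12 weeks, 5 rose and 0 fell. The 5 were Ptgr1, Hmox1, Slc7a11, Txnrd1 and Bach1. Txnrd1, thioredoxin reductase, had signals of 12.18, 12.71 and 12.14 at 12 weeks, against 10.93, 11.21 and 11.40 at 6 weeks, a difference of 1.16 (SE 0.21, adjusted p = 0.0336). Bach1, whose protein represses Hmox1, had 9.95, 10.27 and 10.03 at 12 weeks, against 8.99, 8.97 and 9.11 at 6 weeks, a difference of 1.06 (SE 0.15, adjusted p = 0.00713). In both genes the groups were clearly apart and the arrays within a group close together. The median difference of the list was 0.41 with cadmium and 0.09 with saline, beside -0.00375 and -0.00714 over all genes, and 14 members on the higher side and 1 on the lower side had an unadjusted p under 0.05. Its members differed among themselves. Gclc and Gclm, the subunits of the enzyme that makes the first bond of glutathione, were named after their values were seen: they differed by -0.19 and -0.23 and stood between 18.20 and 19.70 on all 6 cadmium arrays, near the top of the scale. Leaving out replicate 1 of the 12 week group gave the list a median of 0.60, and leaving out replicate 2 gave 0.26.

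Glucuronidation and drug efflux had 15 measured genes, with 10 on the higher side and 2 that rose, Ugt2b7 and Abcc2. The basolateral conjugate pump Abcc3 had signals of 8.92, 9.54 and 8.23 at 12 weeks, against 7.59, 7.70 and 7.89 at 6 weeks (difference 1.17, adjusted p = 0.0912), and Abcc1 differed by 0.48 (adjusted p = 0.27). The groups did not overlap in either gene, but neither passed. The median of the list was 0.35 with cadmium and 0.15 with saline, and without replicate 2 of the 12 week group it was 0.06. Against saline of the same time the median of the list was 0.49 at 12 weeks and 0.69 at 6 weeks, so it was not higher at 12 weeks. The median of the cadmium difference minus the saline difference was 0.13. Of 22 cytochrome P450 genes 18 were on the lower side and none passed. Cyp2c11, a steroid hydroxylase, had signals of 4.59, 7.03 and 7.42 at 12 weeks, against 9.39, 12.68 and 9.08 at 6 weeks (difference -4.04, adjusted p = 0.264), and its saline arrays ran from 4.66 to 9.47 at 12 weeks and from 7.76 to 9.95 at 6 weeks.

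NRF2 with its partners binds antioxidant response elements. The sequences just upstream of 3 of the risen genes that hold a loose form of the core are printed to show where it lies. RefSeq tables of the GRCr8 assembly gave the 250 bases before the annotated start for 31 of the 41 risen genes. Hmox1 and Ptgr1 were not among the 31. Searched on both strands, the loose core TGANNNNGC, with any base at N, was in 14 of the 31 (45.2%) and in 34.6% of the 27457 upstream stretches of the same table. It was not in those of Abcc2, Txnrd1 and Bach1. A longer form of the element, of 10 letters, was in 0 of the 31 and in 2.37% of all, and an E-box, CACGTG, bound by Myc and by the clock proteins, in 4 of the 31 (12.9%) and in 5.79% of all. An occurrence of the letters is no proof of binding, and their absence says only that they are not within this stretch. The stretch of Ugt2b7 is chr14:21251285-21251534 on the plus strand, that of Pir chrX:33851050-33851299 on the minus strand and that of Slc7a11 chr2:136668265-136668514 on the minus strand, each written 5′ to 3′ toward the gene with the core, or its reverse complement, in capitals.
Ugt2b7: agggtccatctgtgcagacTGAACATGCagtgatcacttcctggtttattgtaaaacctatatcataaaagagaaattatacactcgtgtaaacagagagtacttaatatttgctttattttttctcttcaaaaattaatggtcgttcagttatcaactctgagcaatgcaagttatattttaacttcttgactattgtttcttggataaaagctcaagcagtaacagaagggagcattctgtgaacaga
Pir: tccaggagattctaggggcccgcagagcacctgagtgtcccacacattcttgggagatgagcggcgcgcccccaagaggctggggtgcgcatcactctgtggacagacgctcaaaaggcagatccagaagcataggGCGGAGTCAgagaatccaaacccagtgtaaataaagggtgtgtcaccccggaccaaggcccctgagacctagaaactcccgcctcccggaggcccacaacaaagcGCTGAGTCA
Slc7a11: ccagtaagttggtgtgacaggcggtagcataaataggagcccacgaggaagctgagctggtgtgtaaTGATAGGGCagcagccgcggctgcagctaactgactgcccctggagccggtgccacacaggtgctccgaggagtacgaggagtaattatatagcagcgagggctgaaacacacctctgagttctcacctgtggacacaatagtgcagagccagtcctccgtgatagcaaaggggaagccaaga
Pir holds the loose core from -114 to -106 and from -9 to -1, counted back from the base before its start. Slc7a11 holds it from -183 to -175 and Ugt2b7 from -231 to -223. These 3 genes differed between the times by 2.50, at least 1.35 and 5.25 log2 units, as given above.

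Besides the 12 largest rises and the genes picked through lists, 24 more genes rose, and those named here were chosen after their values were seen. Npm1, nucleophosmin, had signals of 13.66, 13.36 and 13.33 at 12 weeks, against 12.53, 12.51 and 12.46 at 6 weeks (difference 0.95, adjusted p = 0.0399). Ncl, nucleolin, had 13.66, 13.76 and 13.66 at 12 weeks, against 13.12, 13.22 and 12.92 at 6 weeks (difference 0.61, adjusted p = 0.0143). The groups were apart in both. In Ncl the cadmium arrays of 6 weeks lay below the saline arrays of 6 weeks, which read 13.37, 13.32 and 13.24. Ncl-ps1, Rpl37l2, Rpl5l1, Rpl24l2, Rps19-ps4 and Ube2r2-ps1 rose by 0.72 to 1.30, and since these are copies of other genes the probes may read the parent gene. Their saline values at 12 weeks came close to or into the cadmium range in some cases: Rpl5l1 had 11.15, 11.19 and 11.27 with cadmium at 12 weeks, against 11.22, 11.02 and 10.91 with saline at 12 weeks. Fbxo32, the ubiquitin ligase atrogin-1 known from wasting muscle, rose by 0.91, and Zfand2a, a zinc finger protein induced by arsenite, by 1.03. Mgmt, which removes alkyl groups from guanine in DNA, rose by 0.56. At 12 weeks Mgmt had 6.01, 6.15 and 5.98 with cadmium, overlapping 5.78, 6.06 and 5.93 with saline. At 6 weeks its cadmium arrays, at 5.37, 5.65 and 5.43, lay below saline, at 5.81, 5.92 and 5.79. Cd52, a small surface protein of lymphocytes, rose by 1.07 (adjusted p = 0.00596) while the lymphocyte list had a median difference of -0.12. LOC102552091, a gene the annotation leaves without a name, rose by 0.92 (SE 0.10, adjusted p = 0.00122), and the odorant receptor gene Or6k6 and LOC102551020 had means below background at both times, so no difference is given for them.

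Genes of growth control, cell death and tubular damage were among the risen genes in single numbers. Myc, the growth regulator, had signals of 7.92, 7.81 and 7.65 at 12 weeks, against 6.22, 6.32 and 6.44 at 6 weeks, a difference of 1.47 (SE 0.23, adjusted p = 0.0143). In saline Myc had 6.89, 6.75 and 5.70 at 12 weeks, against 5.81, 5.92 and 5.99 at 6 weeks, a difference of 0.54 (adjusted p = 0.56). Its cadmium difference minus its saline difference was 0.93 (adjusted p = 0.421). Myc was the 1 gene to rise of 22 immediate early genes, whose median difference was 0.02 with cadmium and 0.31 with saline. Bax, a pore-forming promoter of apoptosis and a p53 target, had 5.84, 5.86 and 5.73 at 12 weeks, against 5.19, 5.44 and 5.34 at 6 weeks, a difference of 0.48 (adjusted p = 0.0256). It was 1 of 24 p53 targets, of which 17 were on the higher side and 7 of those had an unadjusted p under 0.05, among them the polo-like kinase Plk2 (1.65, adjusted p = 0.123), the stress cytokine Gdf15 (1.41, adjusted p = 0.131) and the cell cycle inhibitor Cdkn1a (1.31, adjusted p = 0.0625). In saline 17 of the 24 were on the higher side too, 4 of them with an unadjusted p under 0.05, and the median was 0.11 with cadmium and 0.16 with saline. Fgb, the beta chain of fibrinogen, had 5.89, 6.37 and 6.20 at 12 weeks, against 4.88, 4.96 and 5.14 at 6 weeks. It was the 1 gene to rise of 26 in the tubular injury list (difference 1.16, SE 0.19, adjusted p = 0.0174). In saline Fgb differed by 0.41 (adjusted p = 0.582). Its cadmium difference minus its saline difference was 0.75 (adjusted p = 0.421). Havcr1, which encodes the urinary injury marker KIM-1, had 8.26, 8.94 and 11.32 at 12 weeks, against 5.67, 6.32 and 5.95 at 6 weeks, yet did not pass (difference 3.53, SE 0.82, adjusted p = 0.143). Saline kidneys of 12 weeks held high values of it too, 10.08, 7.35 and 5.96, against 5.80, 5.83 and 5.68 with saline at 6 weeks. In the injury list 21 of 26 differences were positive with cadmium, for a median of 0.30, and the saline median was 0.44. Without replicate 1 of cadmium at 12 weeks the cadmium median was 0.50, and with the proximal tubule covariate 0.13.

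Cell cycle genes leaned upward without a single call. Of 38 measured, 34 were on the higher side, 14 higher and 1 lower had an unadjusted p under 0.05, and the median was 0.24, beside 0.16 in saline. Ccnb2 and Ccna2, cyclins of mitosis and of DNA synthesis, differed by 0.73 and 0.72, and Cenpf, a kinetochore protein, by 0.60 (adjusted p = 0.295, 0.301 and 0.234), while cyclin D1, Ccnd1, differed by -0.99 (adjusted p = 0.269). The mean level of the list was 5.62 to 5.89 with cadmium at 12 weeks and 5.39 to 5.52 with cadmium at 6 weeks, and saline kidneys ran from 5.20 to 5.85 at 12 weeks and from 5.23 to 5.32 at 6 weeks. Heat shock proteins had a median of 0.11 with cadmium and 0.12 with saline. Hsp90aa1, the inducible form of the chaperone Hsp90, differed by 1.30 (adjusted p = 0.0977) and Hspa1a, an inducible Hsp70, by 1.21 (adjusted p = 0.346). The endoplasmic reticulum stress list, with Atf3 at 0.61 (adjusted p = 0.215) and Ddit3 at 0.49 (adjusted p = 0.447) in front, had a median of 0.10 with cadmium and 0.23 with saline.

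No gene of the metal and iron lists passed. Mt1 and Mt2A, the metallothioneins of most tissues, read 19.91 to 19.93 on all 6 cadmium arrays, at the end of the scale, so no difference between 12 and 6 weeks can be read from them. Mt3, the brain form, had 4.61, 4.43 and 4.77 at 12 weeks, against 4.68, 4.50 and 4.66 at 6 weeks, and the groups overlapped. Of 25 metal genes 0 passed and the median difference was -0.03. Slc39a4, the zinc importer ZIP4, was below background at 6 weeks and at least 0.54 higher at 12 weeks (adjusted p = 0.333), the basolateral zinc importer Slc39a5 differed by 0.73 (adjusted p = 0.5), and Slc39a8, a carrier of cadmium, zinc and manganese, by -0.99 (adjusted p = 0.646). Among 16 iron genes Tfrc, the transferrin receptor, had signals of 10.73, 10.58 and 11.71 at 12 weeks, against 9.37, 8.87 and 9.72 at 6 weeks. The groups did not overlap, the difference was 1.69 (SE 0.33, adjusted p = 0.0568), and it did not pass. Slc48a1, a heme carrier of endosomes, differed by 0.27 (adjusted p = 0.406).

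**Figure D2:**
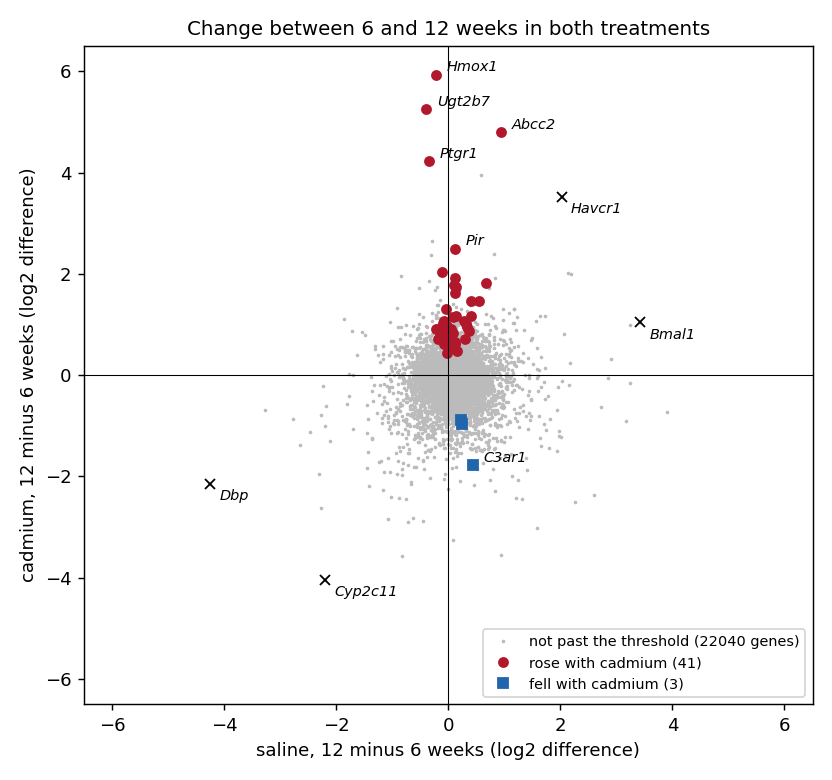
Difference of mean log2 signal between 12 and 6 weeks for each of 22084 genes, with cadmium (vertical axis) against with saline (horizontal axis). Red points are the 41 genes that rose with cadmium, blue squares the 3 that fell and grey points the rest; the red points run along the vertical axis, at -0.39 to 0.95 in saline, and crosses mark Havcr1, Bmal1, Dbp and Cyp2c11, which did not pass with cadmium.

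The saline groups give the same span without cadmium, and they share no array with the cadmium groups. Across all genes the correlation of the cadmium difference with the saline difference was -0.0138, as a description. Of the 41 risen genes, 38 had a saline difference within 0.5 log2 units of 0, and in 38 every cadmium array of 12 weeks lay above every saline array of 12 weeks. At 6 weeks the cadmium arrays lay wholly above saline in 9 of the 41 and wholly below in 4. The 41 genes were picked by these same cadmium arrays, and the shares over all genes were not computed. These counts are therefore a description only. The test of the difference itself, the cadmium difference minus the saline difference, passed in limma for 3 genes on the higher side (0.0136%) and 0 on the lower side, with 1018 higher (4.61%) and 1196 lower (5.42%) at an unadjusted p under 0.05. These were Hmox1 (6.15, SE 0.78), Ptgr1 (4.57, SE 0.56) and LOC102552091 (1.11, SE 0.14), with an adjusted p of 0.0102 each. LOC102552091 had signals of 5.92, 5.87 and 5.74 with cadmium at 12 weeks, against 4.92, 4.81 and 5.04 with cadmium at 6 weeks, and 4.76 to 4.85 with saline at 12 weeks, against 4.94 to 5.04 with saline at 6 weeks. Without replicate 2 of saline at 6 weeks 0 genes passed this test, and with only the 12 arrays of 6 and 12 weeks in the fit 1 did, LOC102552091. Ugt2b7 had a difference of changes of 5.64 (adjusted p = 0.0796) and Abcc2 of 3.85 (adjusted p = 0.268), so a larger change with cadmium than with saline was not shown for them. On the lower side, the smallest p values were those of LOC100365289 (-1.20, adjusted p = 0.15), C3ar1 (-2.22, adjusted p = 0.15), Trpc6 (-1.09, adjusted p = 0.259) and Slc15a3 (-1.12, adjusted p = 0.259).

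In saline the smallest p values on the higher side were those of Rplp1l3 (0.44), Rnf125, a ubiquitin ligase (3.24), and Rars1, the arginyl-tRNA synthetase (1.03), with an adjusted p of 0.224 each. With cadmium these 3 differed by 0.08, -0.15 and 0.18. On the lower side, among genes with a proper symbol, stood Zfp597 (-0.46), Lrrn1 (-0.81) and the small GTPase Rac3 (-1.15), which differed by -0.04, -0.03 and -0.43 with cadmium.

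C3ar1, the receptor on myeloid cells for the complement fragment C3a, had signals of 6.87, 7.15 and 6.92 with cadmium at 12 weeks, against 8.89, 8.94 and 8.47 with cadmium at 6 weeks. Saline kidneys ran from 7.22 to 8.06 at 12 weeks and from 7.09 to 7.31 at 6 weeks, all below the 6 week cadmium arrays and at their lower end level with the 12 week ones. The difference was -1.78 (SE 0.29, adjusted p = 0.0188). The 6 week cadmium arrays were thus the high ones, above the saline arrays of 6 and 12 weeks though not above all of 1 day, where 1 saline array read 8.82, and the 12 week arrays were near the lowest saline values. Slc15a3, a peptide and histidine carrier of lysosomes in immune cells, had 6.71, 6.70 and 6.66 at 12 weeks, against 7.64, 7.69 and 7.41 at 6 weeks (difference -0.89, SE 0.16, adjusted p = 0.0399). The third gene that fell, LOC100365289, has no name in the annotation (difference -0.96, SE 0.16, adjusted p = 0.0188). All 3 had their 6 week cadmium arrays wholly above saline of 6 weeks, but they were picked by those same cadmium arrays. The share over all genes was not computed. Fewer cells of a type and less RNA per cell cannot be told apart in whole kidney, here and below.

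The next smallest p values on the lower side did not pass. They were those of Armc8 (-0.63, adjusted p = 0.0812), a part of a ubiquitin ligase complex, P2ry6 (-0.45, adjusted p = 0.0814), a receptor for UDP, Trpc6 (-0.71, adjusted p = 0.1), a calcium channel known from podocytes, Adgre1 (-1.45, adjusted p = 0.105), a surface receptor of macrophages, and the interferon-induced Mx1 (-0.99, adjusted p = 0.125) and Usp18 (-0.71, adjusted p = 0.131). Adgre1 had signals of 6.21, 6.61 and 6.48 at 12 weeks, against 8.34, 7.93 and 7.39 at 6 weeks. Mx1 had 7.08, 7.46 and 6.92 at 12 weeks, against 8.26, 7.92 and 8.25 at 6 weeks, with saline at 5.43 to 6.08 at 12 weeks and 5.85 to 6.07 at 6 weeks. The 2 genes were alike in having no overlap between the times and unlike in where saline stood: Mx1 remained above saline at 12 weeks, while Adgre1 with cadmium at 12 weeks lay below the saline values of 6.74 to 7.38.

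**Figure D3:**
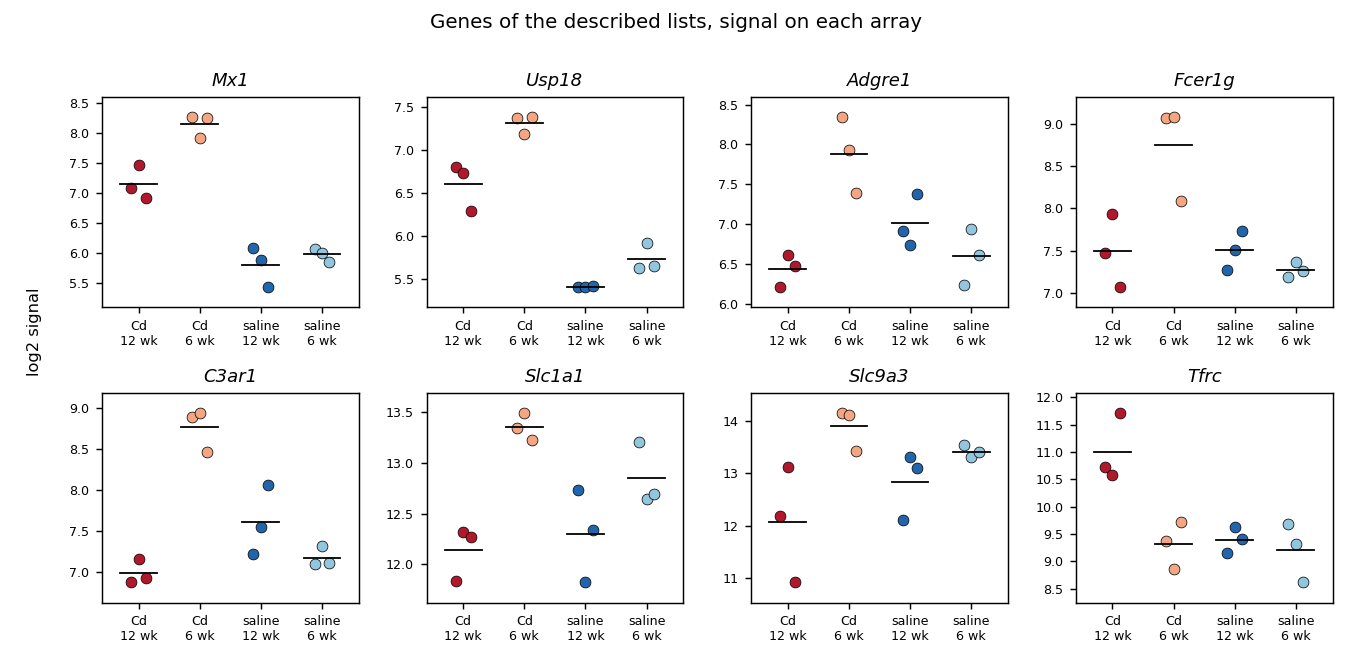
Log2 signal (vertical axes, a scale of their own in each panel) of 8 genes from the described lists on each array of cadmium at 12 weeks, cadmium at 6 weeks, saline at 12 weeks and saline at 6 weeks. Points are arrays and bars group means; C3ar1, Adgre1 and Fcer1g show their high points in cadmium at 6 weeks, Mx1 and Usp18 are above saline at both times, and Tfrc is highest in cadmium at 12 weeks.

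Of the immune lists, those of interferon response, macrophages, complement, antigen presentation, chemokines and lymphocytes had negative medians with cadmium, that of neutrophils did not, and 1 gene among them, C3ar1, fell. Of 39 interferon response genes 30 were on the lower side, 0 passed, and 13 lower and 0 higher had an unadjusted p under 0.05, for a median of -0.31 with cadmium and -0.05 with saline. Ifit2, which blocks translation of viral RNA, differed by -1.34 (adjusted p = 0.256) and Gbp2, a GTPase induced by interferon gamma, by -1.54 (adjusted p = 0.263). Against saline of the same time the median of the list was 0.60 at 12 weeks and 0.87 at 6 weeks, higher at both. Macrophage and dendritic cell genes, 26 in number, had 20 on the lower side and 12 lower with an unadjusted p under 0.05, with a median of -0.33, against 0.10 in saline. Fcer1g, the shared chain of Fc receptors, had signals of 7.47, 7.94 and 7.07 at 12 weeks, against 9.06, 9.08 and 8.09 at 6 weeks (difference -1.25, adjusted p = 0.173), and Fcgr1a and Clec4a3 differed by -0.76 and -1.33 (adjusted p = 0.209 and 0.229). The mean level of this list was 5.90 to 6.30 with cadmium at 12 weeks and 6.23 to 6.72 with cadmium at 6 weeks, and 5.79 to 5.88 and 5.62 to 5.87 with saline at 12 and 6 weeks, so the cadmium times overlapped narrowly.

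For complement 11 of 17 differences were negative and the median was -0.49, against 0.11 in saline, with C3ar1 as the 1 that fell. The proteases of its first component, C1s and C1r, differed by -1.51 and -1.36 (adjusted p = 0.326 and 0.405). For antigen presentation 20 of 22 were negative, the median was -0.40, and its class II members RT1-Da and Cd74 differed by -1.86 and -1.19 (adjusted p = 0.419 and 0.457). Among 39 chemokines and cytokines 30 were negative, the median was -0.25, and Il1b (interleukin 1 beta), Ccl2 (the monocyte attractant) and Tgfb1 differed by -0.95, -1.55 and -1.15 (adjusted p = 0.146, 0.263 and 0.333). Leaving out 1 array moved several of these medians by over 1.5 times. Without replicate 2 of cadmium at 6 weeks the median was -0.16 for antigen presentation and -0.18 for interferon response, and without replicate 3 of that group it was -0.61 for antigen presentation and -0.50 for macrophages. Complement had a median of -0.29 without replicate 1 and -0.31 without replicate 3 of cadmium at 12 weeks. With the proximal tubule covariate described with the transport genes, the medians of antigen presentation and complement were -0.19 and -0.17, and with the clock covariate those of antigen presentation and macrophages were -0.23 and -0.22. With only genes above background tested, the chemokine median was -0.53. Lymphocyte genes had 20 of 27 on the lower side, a median of -0.12 and mean levels of 4.28 to 4.36 at 12 weeks and 4.44 to 4.58 at 6 weeks, all near background. Of them Cd4, also present on rat macrophages, differed by -1.85 (adjusted p = 0.395). Neutrophil genes lay at the background level at both times, with means of 3.999 to 4.13 at 12 weeks and 3.95 to 4.06 at 6 weeks. Among the markers of tissue that could adhere to a kidney, 0 of 14 adipose, 0 of 9 adrenal, 0 of 8 urothelial and 0 of 10 skeletal muscle genes passed, with medians of -0.11, 0.01, -0.02 and 0.03, and 0 of 13 red blood cell genes passed, with a median of -0.01.

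Transport genes of the proximal tubule were lower at 12 weeks, widely and unevenly. Of 30 measured, 27 were on the lower side, 0 passed, and 4 lower and 1 higher had an unadjusted p under 0.05, with a median of -0.98 with cadmium and 0.08 with saline. Slc9a3, the sodium-proton exchanger, had signals of 12.19, 13.12 and 10.91 at 12 weeks, against 14.16, 14.12 and 13.42 at 6 weeks (difference -1.82, adjusted p = 0.229). Aqp1, the water channel, had 16.30, 17.04 and 17.83 at 12 weeks, against 18.08, 18.24 and 17.83 at 6 weeks (difference -0.99, adjusted p = 0.295), and the carnitine carrier Slc22a4 differed by -0.72 (adjusted p = 0.27). The phosphate and urate carrier Slc17a3 went the other way, at 17.36, 17.06 and 16.94 at 12 weeks, against 14.99, 14.56 and 16.07 at 6 weeks (difference 1.91, adjusted p = 0.17). Slc5a2, the glucose carrier SGLT2, had 11.82, 13.20 and 7.56 at 12 weeks, against 14.70, 12.01 and 14.40 at 6 weeks, and overlapped (difference -2.85, adjusted p = 0.608).

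All 21 amino acid and peptide carriers measured were on the lower side with cadmium, with a median of -1.02, beside 0.05 in saline, and 0 passed. Slc1a1, the glutamate carrier, had signals of 11.83, 12.32 and 12.27 at 12 weeks, against 13.35, 13.50 and 13.23 at 6 weeks (difference -1.21, SE 0.32, adjusted p = 0.217). The GABA carrier Slc6a13 differed by -1.51 (adjusted p = 0.359) and Cltrn, collectrin, which brings amino acid carriers to the membrane, by -1.21 (adjusted p = 0.454). The mean level of the proximal tubule list varied between arrays of a group: it was 12.37, 13.66 and 12.66 at 12 weeks with cadmium, against 13.99, 13.57 and 14.14 at 6 weeks. Replicate 2 of the 12 week group stood within the 6 week range and the other two stood below it. Without replicate 1 of that group the median of the list was -0.49, and that of the amino acid carriers -0.54. Without replicate 2 they were -1.22 and -1.17. The saline arrays ran from 13.12 to 13.86 at 12 weeks and from 12.98 to 13.80 at 6 weeks. With the list's level of each array as a covariate, the median of the amino acid carriers was -0.10 and that of the transport list itself 0.11. For the transport list this covariate is its own mean level, so its value there says nothing about its change. In that fit 32 genes rose and 1 fell, and Hmox1, Ugt2b7, Abcc2 and Ptgr1 stayed past the threshold.

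**Figure D4:**
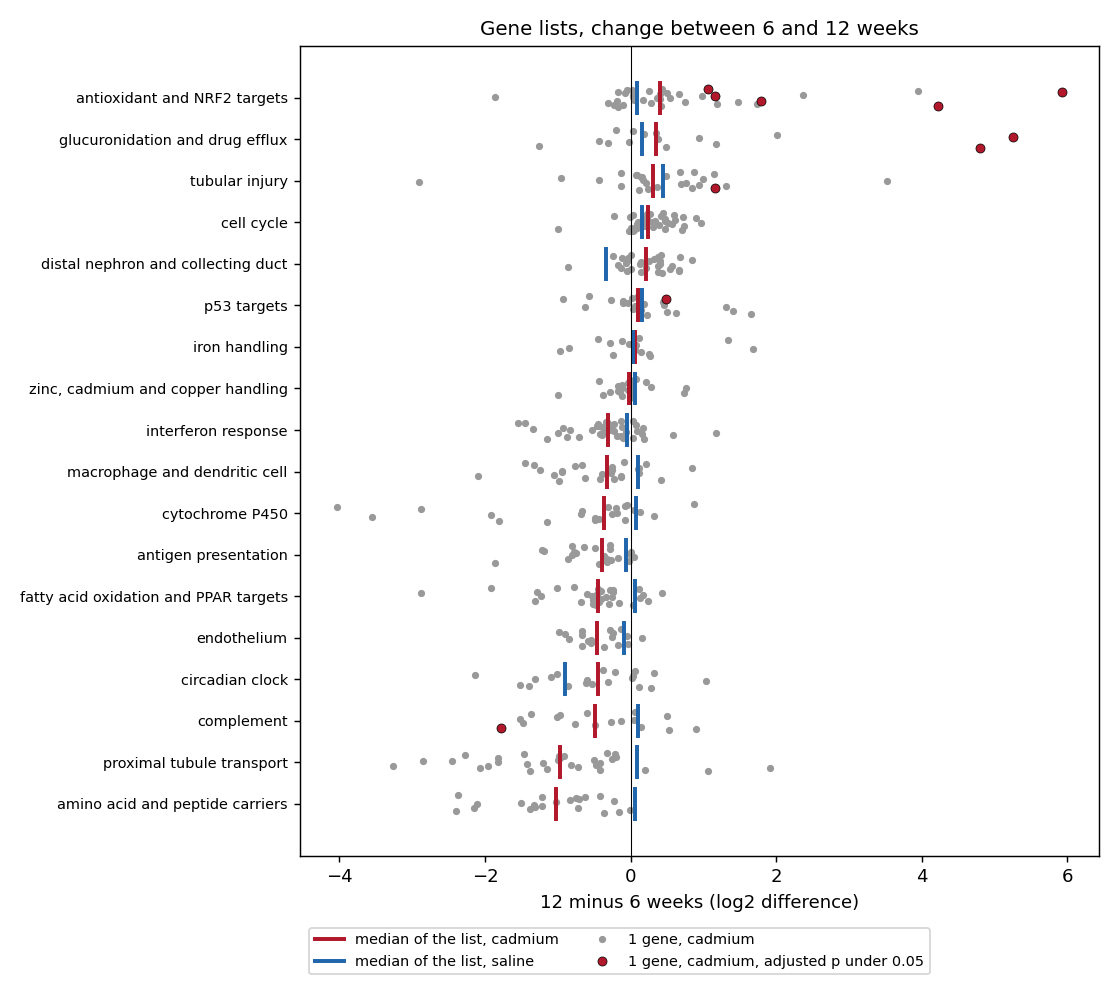
Difference of mean log2 signal between 12 and 6 weeks (horizontal axis) for the genes of 18 lists (rows). Grey points are genes with cadmium, red points those with an adjusted p under 0.05, red bars the median with cadmium and blue bars the median with saline; the red bar is at 0.41 for the antioxidant list and at -1.02 for amino acid and peptide carriers, where every point is at or below 0.

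Genes for energy metabolism in the tubule were lower as well, with no call. Of 33 fatty acid oxidation genes 27 had negative differences, and the median was -0.44, against 0.06 in saline, and Cyp4a1, which hydroxylates fatty acids, had signals of 11.02, 11.44 and 7.06 at 12 weeks, against 12.59, 12.86 and 12.71 at 6 weeks (difference -2.88, adjusted p = 0.482). Acadm, the medium-chain dehydrogenase, differed by -0.44 (adjusted p = 0.457) and Mgll, a monoglyceride lipase, by -0.69 (adjusted p = 0.386). The respiratory chain had 30 of 31 on the lower side, by little, with a median of -0.17 and 1 member, Ndufs4 of complex I, at an unadjusted p under 0.05 (difference -0.42, adjusted p = 0.411). Pck1, the rate-limiting enzyme of gluconeogenesis, had 14.38, 16.53 and 13.50 at 12 weeks, against 16.65, 17.83 and 17.21 at 6 weeks (difference -2.43, adjusted p = 0.39). Phosphate carriers had 8 of 9 on the lower side, and the housekeeping phosphate importer Slc20a1 was the 1 on the higher side (0.60, adjusted p = 0.134). With the proximal tubule level as a covariate the medians of fatty acid oxidation, the respiratory chain and the phosphate carriers were 0.08, 0.12 and 0.04.

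Other cell types of the kidney differed in direction. Endothelial genes had 17 of 18 on the lower side, 6 with an unadjusted p under 0.05, and a median of -0.46, against -0.09 in saline. Without replicate 1 of the 12 week group the median was -0.64 and without replicate 3 it was -0.27. Plvap, of fenestrated capillaries, had 8.88, 8.67 and 8.04 at 12 weeks, against 9.82, 9.34 and 9.38 at 6 weeks (difference -0.98, adjusted p = 0.336), and Tie1 and Sox18, an endothelial receptor and a transcription factor, differed by -0.67 and -0.55 (adjusted p = 0.31 and 0.27). Distal nephron genes had 22 of 31 on the higher side, a median of 0.21 with cadmium and -0.34 with saline, and no call. With the proximal tubule level as a covariate the cadmium median was -0.24, and without replicate 1 of the 12 week group it was -0.18. Podocyte genes had a median of 0.43 with cadmium and -0.31 with saline over 10 members, and -0.04 without that replicate. Genes of smooth muscle, pericytes and fibroblasts had 12 of 16 on the lower side and a median of -0.13, and matrix genes 26 of 36 and a median of -0.13, with thrombospondin 1, Thbs1, at -1.25 (adjusted p = 0.286).

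Clock genes split the arrays within groups. Bmal1 and Dbp encode transcription factors that peak at opposite times of day, and the signal of Bmal1 minus that of Dbp was 1.02, -5.43 and 0.73 with cadmium at 12 weeks, against -7.15, -7.23 and 1.15 with cadmium at 6 weeks. One array of each cadmium group thus stood with the majority of the other. In saline it was 1.80, -0.17 and 2.70 at 12 weeks, against -6.08, -5.87 and -6.73 at 6 weeks, without overlap. Bmal1 itself differed by 1.04 (adjusted p = 0.72) with cadmium and by 3.42 (adjusted p = 0.395) with saline, and Dbp by -2.14 (adjusted p = 0.593) and -4.25 (adjusted p = 0.474). The part of this measure in the results was not tested beyond 1 fit. With Bmal1 minus Dbp as a covariate, 29 genes rose and 0 fell, Hmox1, Ugt2b7, Abcc2 and Ptgr1 stayed past the threshold for the cadmium times, and Hmox1 lost its call in the difference of changes.

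**Figure D5:**
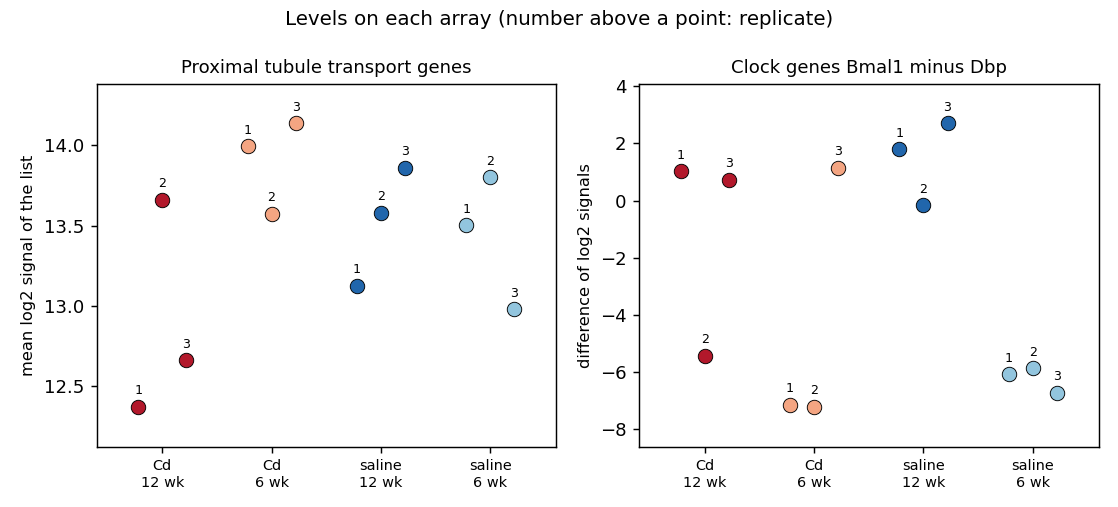
Mean log2 signal of the 30 proximal tubule transport genes (left) and log2 signal of Bmal1 minus that of Dbp (right) on each array of cadmium at 12 weeks, cadmium at 6 weeks, saline at 12 weeks and saline at 6 weeks. Each point is 1 array with its replicate number; replicates 1 and 3 of cadmium at 12 weeks are the 2 lowest on the left, at 12.37 and 12.66, and replicate 2 stands apart from them in both panels.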

How the data were processed

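Log2 signals per probe set were used as deposited by the authors for 18 arrays (6 groups of 3); the summarization, the normalization between arrays and the reason for the upper end of the scale at 19.93 are not given in the sources used here. Groups came from the sample labels. Of 70570 probe sets, 1738 controls, 505 with several genes and 44890 with no gene were left out; the remaining 23437 gave 22084 genes, each represented by its brightest probe set, and 22068 of 22237 gene IDs were found in RefSeq.

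A limma group-means model over all 18 arrays (12 residual and 2.45 prior degrees of freedom) tested cadmium at 12 minus 6 weeks, saline at 12 minus 6 weeks and the difference between these, with Benjamini-Hochberg adjustment over all genes and a threshold of 0.05. Adjusted p values throughout are limma's. Where the dimmer group's mean was below the background level, "at least" gives the brighter mean minus that level. For a single gene, an exact permutation test of 3 against 3 arrays cannot go below p = 0.1 (two-sided). The labels call the replicates biological without saying whether each is 1 animal or a pool, and p values measure the spread between these samples. The script was tested on simulated data. The comparison and the gene lists were chosen with earlier results of these data known.

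Named genes were the 12 largest rises past the threshold with a proper symbol, groups that do not overlap and a mean above background. On the lower side, where few passed, the 8 smallest p values were named. For the lists described, members past the threshold and up to 4 of the smallest p values were named. Some lists have fewer than 4 members named, and some none. The metallothioneins, Hmox1, Slc5a2, Bmal1 and Dbp, and the leading genes of the other contrasts, were named too. Alternatives changed the arrays in the fit, the replicate block, normalization, the filter, the probe set rule, weights, the spread model and covariates, and left out each array in turn. Versions were R 4.3.3, limma 3.58.1, Python 3.11.15, pandas 2.3.3, numpy 2.4.6 and matplotlib 3.10.9.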

Additional observations from a re-analysis of the deposited data

Results flagged for a closer look

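In 3 genes the change between 12 and 6 weeks differed between cadmium and saline in limma's test of that difference, each with an adjusted p of 0.0102. The cadmium change exceeded the saline change by 6.15 log2 units in Hmox1, by 4.57 in Ptgr1 and by 1.11 in LOC102552091. In each of them all 3 cadmium arrays of 12 weeks lay above all 3 of 6 weeks. Of 22 alternatives run for this test, 19 kept the call of Hmox1, 20 that of Ptgr1 and 21 that of LOC102552091, and all 3 calls were lost without replicate 2 of saline at 6 weeks. Groups of 3 arrays are too small to look for a single outlying array.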

How the results depend on the processing

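Of the counts, 41 rises and 3 falls with cadmium, 0 calls in saline and 3 in the difference of changes, most moved under some alternative, and the cause was not tested. With only the 6 cadmium arrays in the fit, which leaves 4 residual degrees of freedom, 0 rose and 0 fell, and with only the 12 arrays of 6 and 12 weeks the difference gave 1. Median centring gave 5 in the difference. Quantile normalization gave 82 rises, 5 falls, 1 in saline and 7 in the difference. Array weights gave 81, 6, 19 and 14. Testing all probe sets gave 77 rises. The proximal tubule covariate gave 1 fall and 7 in the difference, and the Bmal1 minus Dbp covariate 0 falls. Leaving out 1 of the 6 cadmium arrays compared gave 15 to 49 rises and 0 to 9 falls with cadmium. Leaving out 1 saline array of those times gave 0 to 10 in saline (10 without saline 12 week replicate 3). In the difference, leaving out 1 of these 12 arrays gave 0 to 17 (17 without cadmium 12 week replicate 3). For single genes and list medians, 2920 recomputed values were counted as unchanged. These were genes that kept their direction and side of the threshold, and list medians that moved by less than the spread, whatever their sign. A further 231 values no longer passed, 22 came to pass and 33 list medians moved by more than the spread. The medians of 20 of 44 lists changed sign under at least 1 alternative. Those of podocytes and the distal nephron did so without replicate 1 of cadmium at 12 weeks. The distal nephron median also did so with the proximal tubule covariate, at -0.24. With the same covariate the medians of the respiratory chain, phosphate carriers, proximal tubule transport and fatty acid oxidation changed sign as well. These 4 medians stayed negative whenever 1 of the 6 cadmium arrays was left out, and for proximal tubule transport the covariate is the list's own mean level. Of the genes, the sign changed in Mt1, Mt2A, Mt3, Slc5a2 and Bmal1, none of which had passed; Mt1 and Mt2A are at the end of the scale, so their sign carries no information. With median centring the difference was 0.0071 in Mt1, 0.0072 in Mt2A and 0.0057 in Mt3. With the mean of all probe sets Mt1 differed by 0.19. With the proximal tubule covariate Mt1 differed by 0.54, Mt2A by 0.022, Mt3 by 0.042 and Slc5a2 by 0.41, and with the clock covariate Mt1 by 0.22 and Bmal1 by -0.27. Bmal1 is itself part of the clock covariate, so its value there says nothing about its change. Mt3 ran from -0.0896 to 0.0766 when 1 array was left out. The replicate numbers do not pair the samples: same-numbered cadmium arrays deviated with correlations of -0.0519, -0.133 and -0.0212, and with the replicate block 34 genes rose and 2 fell, with 0 in saline and 3 in the difference. What limits all of this is 3 arrays a group, a scale that saturates for metallothioneins, and signals near background, where differences are compressed.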
